A study of Homo sapiens with 12 samples.

Results

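The cytosolic ribosomal protein genes are the 77 genes of the deposited table whose symbol is RPL or RPS followed by digits and an optional A or X, plus RPLP0, RPLP1, RPLP2 and RPSA, with at least 0.5 RPKM (reads divided by gene length and by library size) in at least 3 of 12 libraries. All 77 symbols that matched passed this limit, out of 14202 genes passing it and 26439 genes in the table. They are 46 genes of the large and 31 genes of the small subunit. RNA was sequenced from 4 groups of 3 libraries: LNCaP-EnzR cells with shCXCR7 and with LKO, and C4-2B-EnzR cells with shCXCR7 and with LKO. shCXCR7 is a short hairpin against the chemokine receptor CXCR7, listed in the table by its symbol ACKR3, and LKO is the control vector. Both are established prostate cancer lines selected for growth in enzalutamide, a blocker of the androgen receptor, and all 4 groups were kept in the drug. LNCaP-EnzR cells were at passage 23 with 2 µM and C4-2B-EnzR cells, whose parent line was derived from LNCaP, at passage 15 with 10 µM enzalutamide. RNA was taken 4 days after infection. Which hairpin was used is not given in the sources used here, and nothing states that the 3 libraries of a group came from separate cultures, so the tests measure the spread between these libraries, which may be technical.

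Ribosomal proteins surround the ribosomal RNA and are made in matching amounts, since proteins that are not built into a ribosome are degraded. Their mRNAs are among the most abundant of a growing cell, and most begin with a C followed by a run of pyrimidines, the terminal oligopyrimidine (TOP) motif, through which the kinase mTOR and the protein LARP1 govern their translation. Several members also act outside the ribosome, such as RPL5 and RPL11, which bind MDM2 and so restrain its action on p53.

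Libraries held 6380784 to 9832440 reads in genes, computed from the steps between RPKM values. LNCaP-EnzR shCXCR7 replicate 3 stood apart: 27.5% of its reads lay in genes, against 67.0% to 75.5% in the other 11 libraries, and 1636 genes were listed at 0 in it, against 8719 to 9652. Levels below were divided by median-of-ratios factors within each line, or over 12 libraries where control cells of the lines are compared. The ribosomal protein genes were low in LNCaP-EnzR shCXCR7 replicate 3, also as a share of RPKM, so LNCaP-EnzR results are given with and without it. ACKR3 fell by 1.28 in LNCaP-EnzR cells on the log2 scale (limma, adjusted p = 0.000175), with 56.3, 51.2 and 39.98 RPKM with shCXCR7 against 124, 119 and 113 RPKM with LKO, and by 1.97 in C4-2B-EnzR cells (limma, adjusted p = 0.000109), with 22.2, 23.7 and 18.9 RPKM against 83.3, 86.5 and 85.9 RPKM. Exact permutation of 3 against 3 libraries gave p = 0.1 in each line, 2-sided, the smallest it allows. All 7 luminal prostate markers were detected, with sums of 340 to 435 RPKM with shCXCR7 against 416 to 441 RPKM with LKO in LNCaP-EnzR cells, and 423 to 457 RPKM against 513 to 537 RPKM in C4-2B-EnzR cells. Neuroendocrine marker sums were 6.68 to 8.04 RPKM against 12.3 to 14.6 RPKM in LNCaP-EnzR cells, and 14.97 to 16.6 RPKM against 19.6 to 21.4 RPKM in C4-2B-EnzR cells. Basal and blood marker sums were at most 0.262 RPKM in every group but LNCaP-EnzR shCXCR7. There they ran from 0.0382 to 2.74 RPKM and from 0.0795 to 3.98 RPKM between libraries. Fibroblast marker sums were 3.97 to 7.35 RPKM with shCXCR7 against 3.56 to 3.99 RPKM with LKO in LNCaP-EnzR cells, and 8.83 to 10.3 RPKM against 9.27 to 11.96 RPKM in C4-2B-EnzR cells. Their part in the results was not tested.

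In RefSeq, 62 of the 77 genes were matched to a start site on GRCh38.p14. A run of at least 8 pyrimidines (letters C or T, coding strand only) touching the 5 bases on either side of the start was present in 45 of the 62 (72.6%), against 1031 of 9481 tested protein-coding genes that are not members (10.9%). The 30 bases around the start, 15 on each side, are shown for the matched members that were called in the same direction in both lines with all libraries, on either of the scales used below, with the run in capitals. RPL37 and RPS20, also called so, were not matched. Scaled to the members, RPLP0, RPLP1 and RPS14 were higher and RPS23, RPS24, RPL37A, RPS27A and RPL13 lower in both lines, and RPL36A was lower in both without that scaling.
RPLP0, chr12:120201097-120201126, minus strand: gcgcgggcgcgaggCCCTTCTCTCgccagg
RPLP1, chr15:69452803-69452832, plus strand: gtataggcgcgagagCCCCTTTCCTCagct
RPS14, chr5:150449725-150449754, minus strand: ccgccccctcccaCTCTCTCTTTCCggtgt
RPS23, chr5:82278340-82278369, minus strand: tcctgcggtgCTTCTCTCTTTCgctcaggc
RPS24, chr10:78033848-78033877, plus strand: cggcgaatcgtggTTCTCTTTTCCTCCTTg
RPL37A, chr2:216498829-216498858, plus strand: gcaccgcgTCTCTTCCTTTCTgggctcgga
RPL36A, chrX:101390996-101391025, plus strand: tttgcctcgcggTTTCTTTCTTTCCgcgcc
RPS27A, chr2:55231888-55231917, plus strand: taaggagtgacacacaagacccagactctt
RPL13, chr16:89560642-89560671, plus strand: ggccctgctatcatcccagagtgcattgcg
RPS27A and RPL13 hold no such run in this window, which says only that these letters are not there. Members moved up or down with either kind of start: in C4-2B-EnzR cells the median log2 fold change was 0.21 for the 45 genes with a run and 0.22 for the 17 without, and in LNCaP-EnzR cells -0.18 and -0.22 (-0.06 and -0.08 without shCXCR7 replicate 3).

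Levels of the members spanned from 1.21 RPKM (RPL7) to 1635 RPKM (RPS6), with a median of 364 RPKM over the 12 libraries. Among the highest were RPS6, the substrate of the S6 kinases, and RPL8 (1401 RPKM), and the lowest after RPL7 were RPS10 (2.00 RPKM) and RPL21 (2.64 RPKM). These levels carry the uncertainty of near-identical copies, since ribosomal protein genes have many processed pseudogenes and reads that fit several places may not have been counted. Of each coding sequence, the share of 50-base words that also occur elsewhere in GRCh38 was computed. The 14 members with under 10% such words had a median of 793 RPKM (117 to 1401 RPKM), and the 13 with 90% or more had a median of 13.3 RPKM (1.21 to 308 RPKM). Across the 77 genes, which are not independent replicates, Spearman's rho of this share with level was -0.73, and with the log2 fold change -0.24 in C4-2B-EnzR and -0.02 in LNCaP-EnzR cells. Comparisons of one gene between groups are therefore given below, and an order of levels between genes is not read from them. At least 98.9% of the words of RPL7, RPS10, RPL21, RPL36A, RPL41 and RPS3A lay elsewhere, so their values are uncertain, and those of RPL7 (8 to 22 reads in a library), RPS10 (10 to 40) and RPL21 (14 to 59) also rest on few reads. Among others named below, the share was 82.1% for RPL10, 80.6% for RPL15, 80.4% for RPS27A and 65.5% for RPLP0, so their values carry this uncertainty too.

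The first question was what the CXCR7 hairpin did to these genes in C4-2B-EnzR cells. There 18 members were higher and 3 lower with shCXCR7 than with LKO (limma, adjusted p under 0.05), where 19.3% of all 14202 genes were higher and 19.3% lower. The median over members was 0.21 on the log2 scale, against 0.00 over all genes, and 64 of 77 had a positive value. The median was 0.20 over large and 0.21 over small subunit genes. The spread within the set was wide, from -0.58 for RPS10, which did not pass (adjusted p = 0.174), to 0.61 for RPLP0. In bulk RNA, fewer cells of a type and less RNA per cell cannot be told apart.

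RPLP0, whose protein anchors the stalk that recruits translation factors to the large subunit and whose mRNA is a common reference in qPCR, rose most. Its level was 740, 733 and 646 RPKM with shCXCR7 against 425, 456 and 509 RPKM with LKO. The groups did not overlap, and the log2 fold change was 0.61 ± 0.10 (SE, limma, adjusted p = 0.00449). RPLP0 (ENSG00000089157.16) lies on chromosome 12 from 120196699 to 120201235, minus strand, in GRCh38. RPLP1, one of the 2 acidic proteins that RPLP0 holds, had 1426, 1340 and 1216 RPKM with shCXCR7 against 962, 930 and 1096 RPKM with LKO, a log2 fold change of 0.42 ± 0.11 (adjusted p = 0.0234, limma). All 3 shCXCR7 libraries were above all 3 LKO libraries. RPLP2, the other acidic stalk protein, had 1196, 1096 and 944 RPKM against 912, 879 and 1054 RPKM, which overlap, and did not pass (0.18 ± 0.12, adjusted p = 0.282, limma).

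Among small subunit genes, RPS21 had 1106, 1050 and 921 RPKM with shCXCR7 against 774, 743 and 804 RPKM with LKO (0.40 ± 0.10, limma, adjusted p = 0.0178). RPS6 had 2051, 1973 and 1743 RPKM against 1319, 1455 and 1604 RPKM (0.40 ± 0.12, limma, adjusted p = 0.0368). RPS14, whose loss of 1 copy underlies the anaemia of a myelodysplastic syndrome, had 687, 655 and 612 RPKM against 445, 508 and 562 RPKM (0.37 ± 0.11, limma, adjusted p = 0.0329). In each of these genes shCXCR7 replicate 3 was the lowest of its group, and the groups did not overlap. RPL10, which is needed for the last step of large subunit maturation, also rose (0.24 ± 0.07, limma, adjusted p = 0.0313). RPL5, RPL11, RPL22, RPL41, RPS4X and RPSA had values of 0.13 to 0.31 that did not pass.

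The 3 genes that fell were RPS23, RPS27A and RPL36A. RPS23, a protein of the decoding centre, had 45.9, 47.9 and 41.0 RPKM with shCXCR7 against 60.1, 63.6 and 70.7 RPKM with LKO, a log2 fold change of -0.53 ± 0.09 (limma, adjusted p = 0.00472). RPS27A, which is made as a fusion with ubiquitin, had 43.99, 51.7 and 41.0 RPKM against 59.98, 67.1 and 69.0 RPKM (-0.52 ± 0.10, limma, adjusted p = 0.00835). RPL36A had 5.25, 5.43 and 5.10 RPKM against 6.88, 7.30 and 6.22 RPKM (-0.35 ± 0.08, limma, adjusted p = 0.0175), and its coding words all occur elsewhere in the genome. In none of these 3 genes did the groups overlap. RPLP0, RPS23 and RPS27A kept direction and call in all 21 other fits of this comparison, while the count of genes called higher did not hold: it was 1 without LKO replicate 2, without shCXCR7 replicate 1 or without shCXCR7 replicate 2, and 7 without LKO replicate 1. The split of 18 higher and 3 lower became 12 and 6 after quantile normalization and 9 and 11 when libraries were scaled to the members themselves. Quantile normalization also brought the median over members to 0.03, against 0.02 over all genes.

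**Figure D1:**
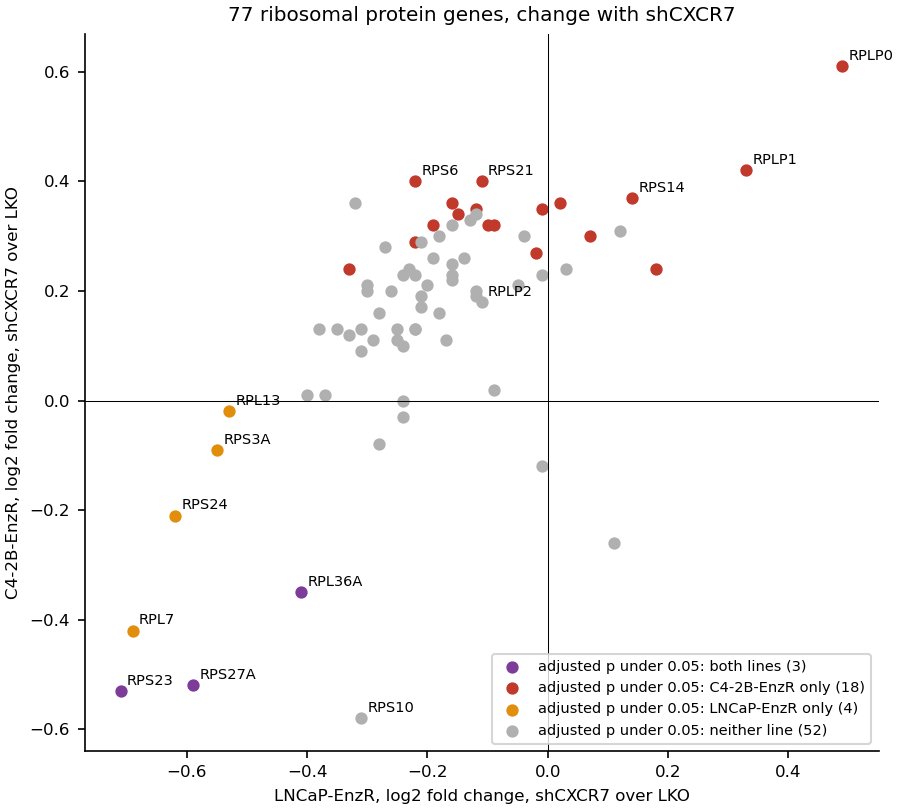
Each point is 1 of the 77 genes, placed by its log2 fold change of shCXCR7 over LKO (rescaled RPKM + 0.25), LNCaP-EnzR on the x axis against C4-2B-EnzR on the y axis, and coloured by the lines in which limma's adjusted p was under 0.05. RPLP0 and RPLP1 sit at the top right and RPS23, RPS27A and RPL36A, called in both lines, at the lower left, while most genes lie left of 0 on the x axis and above 0 on the y axis.

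In LNCaP-EnzR cells 0 members were higher and 7 lower with shCXCR7 than with LKO at an adjusted p under 0.05 (limma), where 14.4% of all genes were higher and 18.7% lower. Before adjustment 1 member was higher at p under 0.05, and voom on the recovered reads called 1 higher and 11 lower, for which shares over all genes are not given. The median over members was -0.21, against 0.01 over all genes. Without shCXCR7 replicate 3 the counts were 7 higher and 11 lower, against 20.0% and 21.4% of the 14010 genes then tested, and the median was -0.07. The 7 genes lower with all libraries were RPL7, RPL13, RPL36A, RPS3A, RPS23, RPS24 and RPS27A, and RPL7 and RPL36A did not pass without that library (adjusted p = 0.0673 and 0.068, limma). The 7 genes higher without it were RPL10, RPL41, RPLP0, RPLP1, RPS12, RPS14 and RPS20. The count of lower genes was 4, 3 and 4 without LKO replicate 1, 2 and 3. Quantile normalization gave 11 higher and 13 lower, and a median over members of -0.05, against -0.02 over all genes.

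RPS23 had 71.8, 70.3 and 54.3 RPKM with shCXCR7 against 103, 110 and 107 RPKM with LKO (-0.71 ± 0.13, limma, adjusted p = 0.00291), and -0.58 ± 0.04 without replicate 3 (limma, adjusted p = 0.000866). All 3 shCXCR7 libraries were lower than every LKO library. RPS27A had 34.7, 31.95 and 26.6 RPKM against 46.4, 46.6 and 47.0 RPKM (-0.59 ± 0.11, limma, adjusted p = 0.00332, and -0.48 ± 0.05 without replicate 3, adjusted p = 0.00172). RPS24, a small subunit gene mutated in some cases of Diamond-Blackfan anaemia, had 183, 164 and 120 RPKM against 223, 237 and 246 RPKM (-0.62 ± 0.17, limma, adjusted p = 0.022, and -0.44 ± 0.07 without replicate 3, adjusted p = 0.00715). RPL13 had 159, 166 and 127 RPKM against 207, 230 and 212 RPKM (-0.53 ± 0.14, limma, adjusted p = 0.019, and -0.41 ± 0.06 without replicate 3, adjusted p = 0.00524). The groups did not overlap in these 4 genes with or without replicate 3. RPS3A had 10.99, 10.7 and 9.30 RPKM against 17.6, 14.3 and 14.1 RPKM (-0.55 ± 0.11, limma, adjusted p = 0.00502, and -0.48 ± 0.11 without replicate 3, adjusted p = 0.0197), with the uncertainty of its many copies.

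RPLP0 had 564, 591 and 419 RPKM with shCXCR7 against 362, 382 and 363 RPKM with LKO. Even the lowest of them, replicate 3, was above every LKO library, yet the wide shCXCR7 group kept the value of 0.49 ± 0.18 short of the threshold (limma, adjusted p = 0.07), and it was 0.65 ± 0.05 without replicate 3 (limma, adjusted p = 0.0011). RPLP1 had 731, 747 and 556 RPKM against 541, 552 and 513 RPKM (0.33 ± 0.19, limma, adjusted p = 0.234, and 0.46 ± 0.06 without replicate 3, adjusted p = 0.00293). RPLP2 had 983, 991 and 733 RPKM against 943, 990 and 966 RPKM and did not pass with or without replicate 3 (0.03 ± 0.06 without it, limma, adjusted p = 0.697). RPS14 had 881, 859 and 669 RPKM against 716, 732 and 728 RPKM, so that only replicate 3 lay below the LKO libraries (0.26 ± 0.05 without it, limma, adjusted p = 0.0133). RPS6, RPL5, RPL11, RPL22, RPS4X and RPSA had values of -0.22 to -0.04 with all libraries and -0.09 to 0.08 without replicate 3, and did not pass either way.

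**Figure D2:**
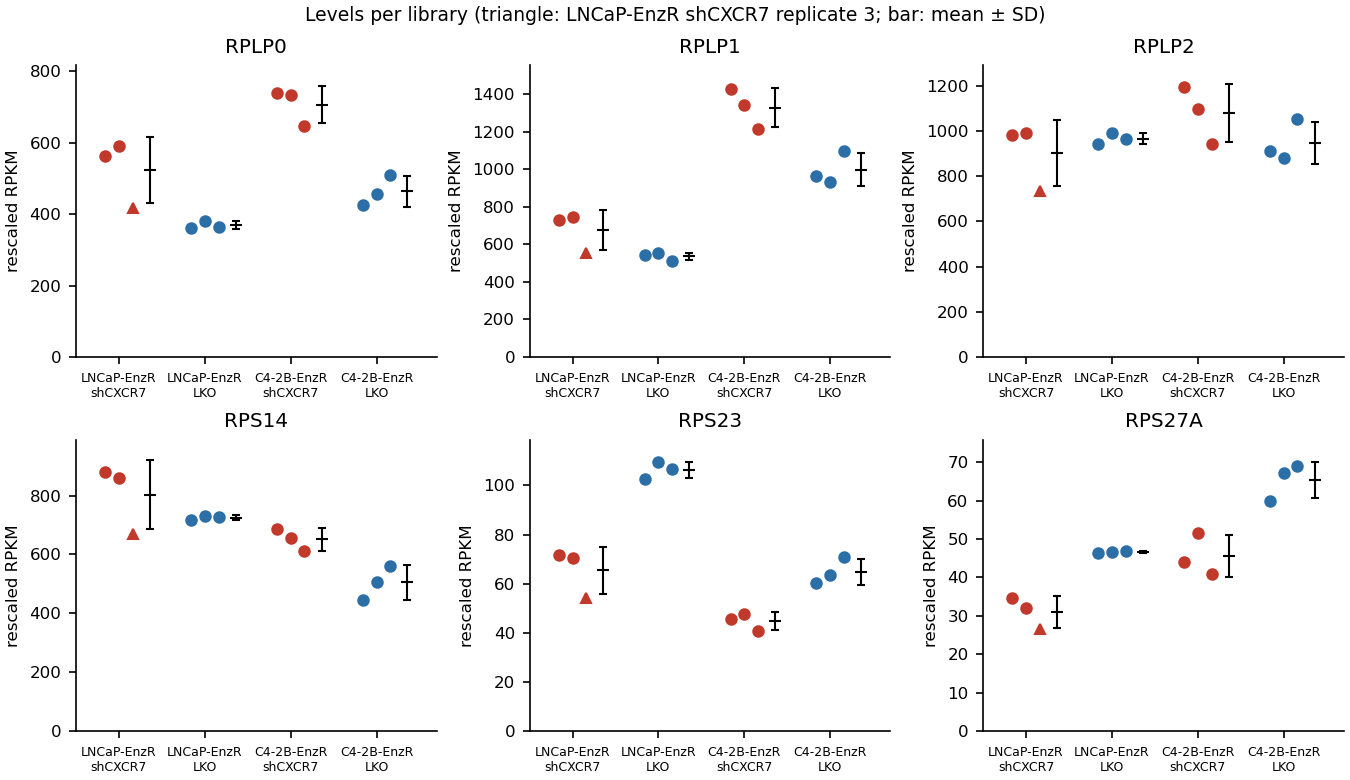
Rescaled RPKM of 6 ribosomal protein genes in each library (points, with the triangle for LNCaP-EnzR shCXCR7 replicate 3), by group on the x axis, and mean ± SD of 3 libraries (bars). RPLP0 and RPLP1 lie higher with shCXCR7 in both lines, RPS23 and RPS27A lower, RPLP2 overlaps, and the triangle is the lowest of its group in every panel.

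Ratios between 2 members inside a library need no scaling factor, and 3 were taken after the values had been seen, so they are given as a description. RPLP0 over RPLP2 was 0.574, 0.596 and 0.571 with shCXCR7 against 0.384, 0.385 and 0.376 with LKO in LNCaP-EnzR cells, and 0.619, 0.669 and 0.685 against 0.467, 0.518 and 0.483 in C4-2B-EnzR cells. RPLP1 over RPLP2 averaged 0.751 ± 0.0073 against 0.554 ± 0.021 in LNCaP-EnzR cells, and 1.24 ± 0.049 against 1.051 ± 0.0096 in C4-2B-EnzR cells (SD, n = 3 each). RPS14 over RPS23, whose genes both lie on chromosome 5, was 12.3, 12.2 and 12.3 with shCXCR7 against 6.97, 6.68 and 6.84 with LKO in LNCaP-EnzR cells, and 14.99, 13.7 and 14.9 against 7.41, 7.98 and 7.95 in C4-2B-EnzR cells. In none of these 3 ratios did the groups overlap in either line, and LNCaP-EnzR shCXCR7 replicate 3, low in the levels, lay nearer to the other shCXCR7 libraries than to any LKO library.

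To set members against each other, libraries were also scaled to the median-of-ratios factor of the 77 genes alone, a choice made after the data were seen. This moved the median of all genes to -0.19 in C4-2B-EnzR and 0.19 in LNCaP-EnzR cells, and values are then relative to the members as a whole. In LNCaP-EnzR cells 13 members were higher and 14 lower (limma, adjusted p under 0.05), where 22.8% and 10.2% of all genes were, and in C4-2B-EnzR cells 9 were higher and 11 lower, where 9.13% and 28.5% of all genes were. RPLP0, RPLP1, RPS14 and RPS20 were higher in both lines, 30.8% of the genes higher in LNCaP-EnzR and 44.4% of those higher in C4-2B-EnzR cells. RPL13, RPL37, RPL37A, RPS23, RPS24 and RPS27A were lower in both, 42.9% and 54.6% of the genes lower in each line. The same 10 genes were found without LNCaP-EnzR shCXCR7 replicate 3. RPL30 was the one gene called in opposite directions, -0.19 in C4-2B-EnzR (adjusted p = 0.0297) and 0.11 in LNCaP-EnzR cells (adjusted p = 0.0468, limma), and it did not pass in LNCaP-EnzR cells without replicate 3. On this scale the log2 fold changes of the 2 lines had a Pearson r of 0.66 and a Spearman rho of 0.62 across the 77 genes, and 0.75 and 0.68 without replicate 3 (0.64 and 0.61, and 0.74 and 0.68, on the scale of all genes), which is a description over genes that share libraries. The overlap of calls and the correlation between the lines over all tested genes are not given here. Neither is therefore read as particular to the members.

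The difference of the knockdown effects between the lines (C4-2B-EnzR minus LNCaP-EnzR) was tested as an interaction. 0 members were called in either direction (limma, adjusted p under 0.05), where 5.15% of all genes were higher and 4.87% lower. Before adjustment 36 members had a positive and 1 a negative difference at p under 0.05, and voom called 12 higher. The shares over all genes at unadjusted p and with voom are not given here. These counts are therefore not read as particular to the members. The median difference over members was 0.40, against 0.01 over all genes, and it was 0.25 without LNCaP-EnzR shCXCR7 replicate 3, with 5 members then called higher (3 without shCXCR7 replicate 2 and 1 without shCXCR7 replicate 1 of that line, and 2 without replicate 3 of either C4-2B-EnzR group). After quantile normalization the median difference was 0.05 over members and 0.05 over all genes. That step gives all libraries the same distribution, so it can remove a shared shift of an abundant set and cannot decide on one. The median over members less that over all genes was 0.42 as deposited, 0.38 at equal sums and 0.37 scaled to the members. The nearest to the threshold with all libraries were RPS18 (0.58 ± 0.17, limma, adjusted p = 0.0523), RPS7 (0.52 ± 0.16, adjusted p = 0.0562) and RPL24 (0.68 ± 0.21, adjusted p = 0.0587). RPS23 (0.18 ± 0.15), RPS27A (0.07 ± 0.15), RPLP0 (0.12 ± 0.19) and RPLP1 (0.09 ± 0.19) had differences near their SE, and none of the 4 passed.

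As a share of all RPKM in a library, which no scaling factor enters, the 77 genes made up 14.6%, 14.2% and 13.2% with shCXCR7 against 11.9%, 12.3% and 13.0% with LKO in C4-2B-EnzR cells. The groups did not overlap. In LNCaP-EnzR cells the share averaged 13.7% ± 1.17 with shCXCR7 against 14.3% ± 0.27 with LKO (SD, n = 3 each), and only replicate 3 (12.3%) lay below the LKO libraries. The ratio of summed RPKM of large to small subunit genes was lower with shCXCR7 in both lines, 1.597 ± 0.0023 against 1.649 ± 0.004 in C4-2B-EnzR and 1.665 ± 0.013 against 1.704 ± 0.017 in LNCaP-EnzR cells (SD, n = 3 each), without overlap. Of 63 other abundant genes, those averaging at least 200 RPKM, 27 were higher and 8 lower in C4-2B-EnzR cells with shCXCR7, with a median of 0.19, against 0.23 for the 49 members of that level, of which 12 were higher and 0 lower. Replication-dependent histone genes, whose mRNAs lack a poly(A) tail, took 0.236% to 0.241% of RPKM with shCXCR7 against 0.150% to 0.179% with LKO in C4-2B-EnzR cells, and 0.227% to 0.258% against 0.187% to 0.199% in LNCaP-EnzR cells. The part of these shifts in the members' result was not tested.

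**Figure D3:**
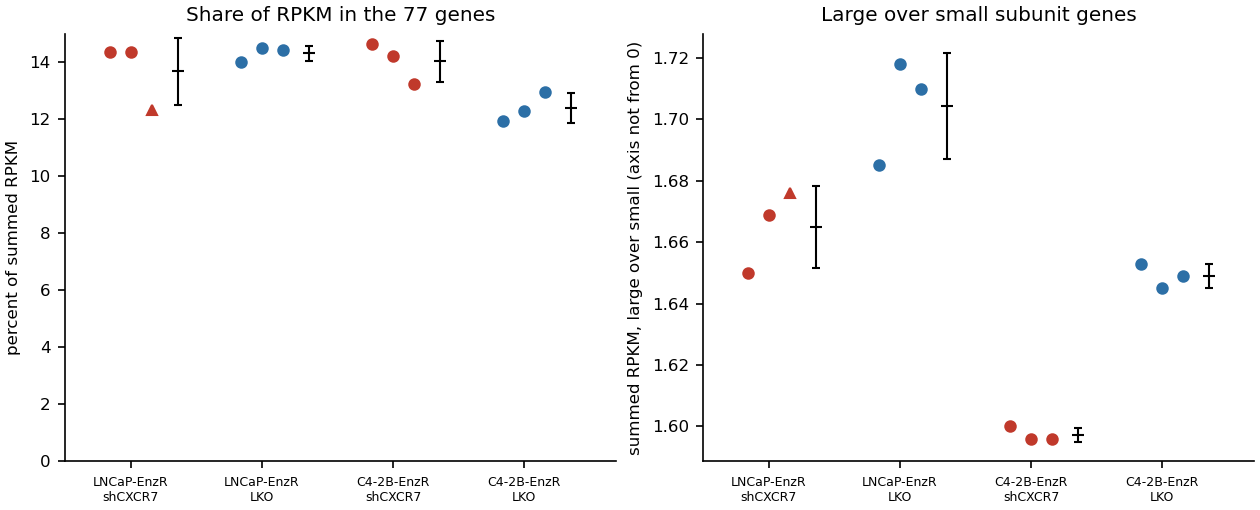
Left, percent of a library's summed RPKM in the 77 genes, and right, summed RPKM of large over small subunit genes (axis not from 0), per library (points) with mean ± SD of 3 libraries (bars), shCXCR7 in red and LKO in blue. The C4-2B-EnzR shCXCR7 libraries lie above the LKO libraries on the left, and shCXCR7 libraries lie below LKO libraries in both lines on the right.

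Control cells of the 2 lines were compared next, in a fit that took factors and spread from all 12 libraries. Line, enzalutamide dose and passage cannot be told apart here. In C4-2B-EnzR LKO cells 3 members were higher and 43 lower than in LNCaP-EnzR LKO cells (limma, adjusted p under 0.05), where 30.4% and 29.6% of all genes were, and the median was -0.38 against 0.00 over all genes. Of large subunit genes 29 of 46 and of small subunit genes 14 of 31 were lower. The share of RPKM in the 77 genes was 12.4% ± 0.53 in C4-2B-EnzR LKO and 14.3% ± 0.27 in LNCaP-EnzR LKO cells (SD, n = 3 each). Among the 63 other abundant genes, 9 were higher and 30 lower, with a median of -0.28. The split of 3 and 43 became 22 and 27 after quantile normalization and 27 and 22 when libraries were scaled to the members, which moved the median of all genes to 0.34. After quantile normalization the median over members was -0.08, against -0.02 over all genes.

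RPL15, a large subunit gene, was lowest, with 32.3, 37.2 and 40.8 RPKM in C4-2B-EnzR LKO against 95.0, 105 and 112 RPKM in LNCaP-EnzR LKO cells (-1.50 ± 0.12, limma, adjusted p = 2.96e-07). RPS3A was next (-1.39 ± 0.10, limma, adjusted p = 2.03e-07). RPL14 had 127, 147 and 164 RPKM against 354, 391 and 377 RPKM (-1.37 ± 0.13, limma, adjusted p = 1.36e-06). RPL34 had 132, 146 and 154 RPKM against 305, 316 and 321 RPKM (-1.13 ± 0.12, limma, adjusted p = 4.05e-06). These genes differed by more than 2-fold with no overlap. RPL13 (-1.10 ± 0.11, limma, adjusted p = 3.03e-06) and RPS23 (-0.98 ± 0.11, adjusted p = 5.05e-06) followed. Over the chromosomes with at least 3 members, the median lay between -1.13 (chromosome 4, which holds RPL34 and RPS3A, 3 of 3 lower) and 0.01 (chromosome 15, 0 of 3 lower). All members were also lower on chromosomes 5 (3 of 3, median -0.79) and 9 (4 of 4, median -0.47), and 5 of 7 on chromosome 3 (median -0.82), which holds RPL15 and RPL14. Of all 77 members 43 were lower, and the shares of all genes lower on these chromosomes are not given here. No chromosome is therefore read as set apart.

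The 3 genes higher in C4-2B-EnzR LKO cells were RPL21, RPLP1 and RPL10. RPLP1 had 875, 844 and 988 RPKM against 589, 601 and 561 RPKM in LNCaP-EnzR LKO cells (0.63 ± 0.13, limma, adjusted p = 0.0011). RPL10 had 73.0, 74.6 and 81.8 RPKM against 52.5, 59.8 and 56.7 RPKM (0.44 ± 0.11, limma, adjusted p = 0.00371). RPL21 had 3.88, 3.99 and 3.68 RPKM against 1.29, 1.40 and 1.28 RPKM (1.38 ± 0.11, limma, adjusted p = 4.51e-07), on 14 to 59 reads and with all of its coding words found elsewhere. RPLP0 and RPLP2 did not differ past the threshold (0.06 ± 0.13 and -0.30 ± 0.14, limma, adjusted p = 0.713 and 0.0877). RPL21, RPL15, RPL14, RPL34 and RPS3A kept their calls in all 27 other fits of this comparison.

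**Figure D4:**
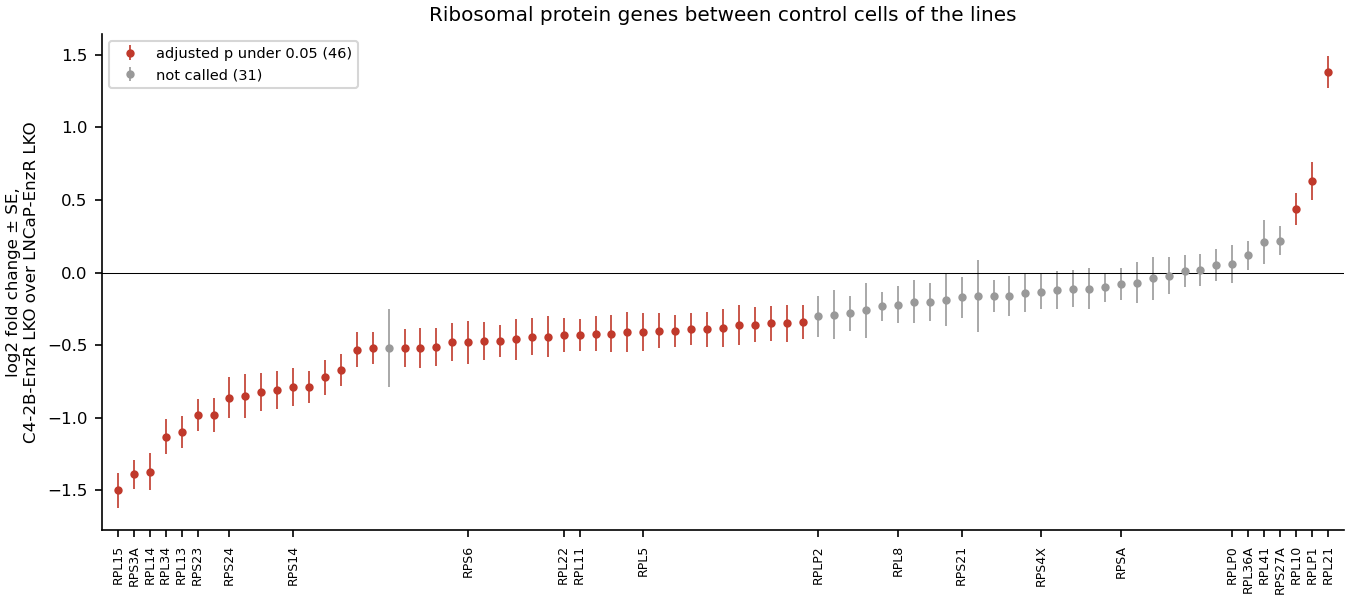
The log2 fold change (± SE) of C4-2B-EnzR LKO over LNCaP-EnzR LKO for each of the 77 genes, in order of value, with names for some, in red where limma's adjusted p was under 0.05. Most genes lie below 0, from -1.50 for RPL15, and RPL10, RPLP1 and RPL21 lie apart at the right end, up to 1.38.

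Genes outside the rule that also encode ribosomal proteins or their paralogs were measured for 11 symbols, of which 9 passed the limit of 0.5 RPKM. RPL7L1, a paralog of RPL7 with a role in processing ribosomal RNA, was lower in both lines (-0.54 ± 0.08 in LNCaP-EnzR, adjusted p = 0.00116, and -0.38 ± 0.09 in C4-2B-EnzR cells, adjusted p = 0.0183, limma). RPL22L1, the paralog of RPL22, was lower in LNCaP-EnzR cells (-0.51 ± 0.13, limma, adjusted p = 0.0141) and had -0.14 ± 0.13 in C4-2B-EnzR cells (adjusted p = 0.442). RPL10L, a paralog known from testis, did not pass in C4-2B-EnzR cells (0.46 ± 0.16, limma, adjusted p = 0.0656) and was higher in LNCaP-EnzR cells (1.28 ± 0.13, adjusted p = 0.000133), a difference that passed the interaction test (-0.82 ± 0.21, limma, adjusted p = 0.0284). Its values are uncertain, since they rest on 16 to 85 reads in a library and its words shared with other places were not computed. RPL26L1, RPL36AL and RPS27L were higher in C4-2B-EnzR cells (0.55, 0.42 and 0.21, limma, adjusted p = 0.00927, 0.008 and 0.027). FAU, which encodes a ribosomal protein as a fusion with a ubiquitin-like part, and GNB2L1, which encodes the scaffold RACK1, did not pass in either line with all libraries. Between control cells GNB2L1 (-1.11 ± 0.12, limma, adjusted p = 5.79e-06) was lower in C4-2B-EnzR cells.

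Genes that build ribosomes were measured beside those of their proteins. Of 39 ribosome biogenesis genes, 1 was higher and 21 were lower with shCXCR7 in C4-2B-EnzR cells, with a median of -0.32, where 19.3% of all genes were higher and 19.3% lower. In LNCaP-EnzR cells 0 were higher and 18 lower, with a median of -0.24, where 14.4% and 18.7% of all genes were (4 and 20 without replicate 3, where 20.0% and 21.4% were). NOP56, a core protein of the box C/D particles that methylate ribosomal RNA, had 42.6, 42.6 and 46.3 RPKM with shCXCR7 against 75.5, 79.8 and 76.6 RPKM with LKO in C4-2B-EnzR cells (-0.82 ± 0.06, limma, adjusted p = 0.000258), and 48.5, 52.8 and 42.5 RPKM against 73.5, 78.7 and 78.8 RPKM in LNCaP-EnzR cells (-0.69 ± 0.11, adjusted p = 0.00134). MYBBP1A, a nucleolar protein, fell by 1.00 in C4-2B-EnzR and by 0.69 in LNCaP-EnzR cells on the log2 scale (limma, adjusted p = 0.000153 and 0.000354). WDR12, which acts in large subunit maturation, fell by 0.67 and 0.76 (limma, adjusted p = 0.00174 and 0.000243). TCOF1, a cofactor of ribosomal RNA transcription, fell by 1.20 in C4-2B-EnzR cells (adjusted p = 0.000637) and had 0.20 ± 0.10 in LNCaP-EnzR cells (adjusted p = 0.163), a difference that passed the interaction test (-1.40 ± 0.15, limma, adjusted p = 0.000373). Of 13 RNA polymerase I genes, 1 was higher and 5 were lower in C4-2B-EnzR and 1 higher and 4 lower in LNCaP-EnzR cells, against the same shares of all genes, and RRN3 and UBTF, which start its transcription, fell in both lines. POLR1A was higher in LNCaP-EnzR (0.32 ± 0.08, limma, adjusted p = 0.0181) and lower in C4-2B-EnzR cells (-0.26 ± 0.08, limma, adjusted p = 0.0441). This difference passed the interaction test (-0.58 ± 0.11, limma, adjusted p = 0.00725).

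**Figure D5:**
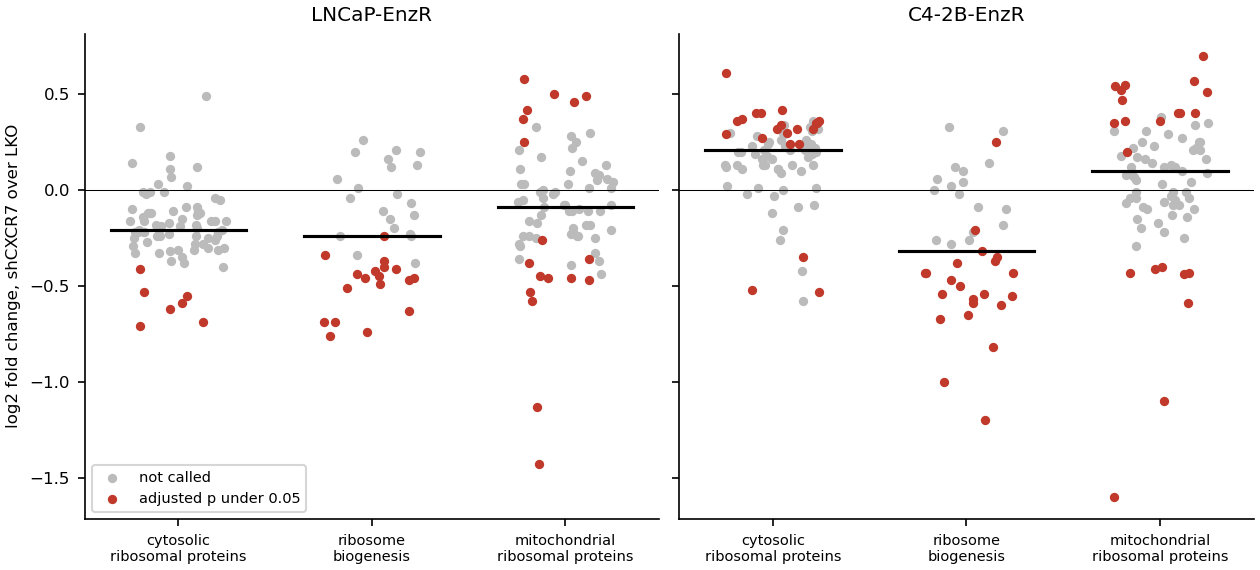
Log2 fold change (shCXCR7 over LKO) of every tested gene of 3 groups in LNCaP-EnzR (left) and C4-2B-EnzR cells (right), in red where limma's adjusted p was under 0.05, with the median as a line. The medians are -0.21, -0.24 and -0.09 on the left and 0.21, -0.32 and 0.10 on the right, for cytosolic ribosomal proteins, ribosome biogenesis and mitochondrial ribosomal proteins in that order.

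Other mRNAs with a TOP motif, those of translation factors and the like, had 8 of 17 higher and 2 lower in C4-2B-EnzR cells, with a median of 0.17, against 19.3% and 19.3% over all genes. In LNCaP-EnzR cells 0 were higher and 2 lower, against 14.4% and 18.7%, and 4 higher and 3 lower without replicate 3. EEF1A1, the factor that brings aminoacyl-tRNA to the ribosome, had 121, 129 and 125 RPKM with shCXCR7 against 93.2, 97.2 and 107 RPKM with LKO in C4-2B-EnzR cells (0.34 ± 0.07, limma, adjusted p = 0.00956), and EIF4A2, an RNA helicase of initiation, fell in both (-0.40 ± 0.07, adjusted p = 0.00519, and -0.70 ± 0.15 in LNCaP-EnzR cells, adjusted p = 0.00723). Of 17 genes of mTOR and the control of TOP mRNAs, 3 were higher and 5 lower in C4-2B-EnzR, and 5 higher and 5 lower in LNCaP-EnzR cells, where 19.3% and 19.3%, and 14.4% and 18.7%, of all genes were. MTOR fell by 0.83 in C4-2B-EnzR and by 0.43 in LNCaP-EnzR cells (limma, adjusted p = 0.0011 and 0.00389). EIF4EBP2, a repressor of cap-dependent initiation, rose in both (0.67 ± 0.09, adjusted p = 0.00236, and 1.14 ± 0.09, adjusted p = 4.74e-05, limma). RPS6KB2 (0.39 and 0.70, adjusted p = 0.00556 and 0.000728, limma) and MAX (0.51 and 0.33, adjusted p = 0.003 and 0.0373) also rose in both. RHEB fell in both (-0.57 and -0.71, adjusted p = 0.00754 and 0.000319, limma). RPTOR and DEPTOR were higher in LNCaP-EnzR cells (0.42 and 0.68, limma, adjusted p = 0.0204 and 0.000424). They did not pass in C4-2B-EnzR cells (0.02 and 0.25, limma, adjusted p = 0.866 and 0.162). Neither difference passed the interaction test (-0.40 and -0.43, limma, adjusted p = 0.103 and 0.0935). MYC, a transcription factor for ribosomal protein and ribosome biogenesis genes, had 42.8, 39.8 and 42.6 RPKM with shCXCR7 against 64.4, 58.6 and 58.6 RPKM with LKO in C4-2B-EnzR cells (-0.53 ± 0.06, limma, adjusted p = 0.00142), and 48.7, 52.5 and 37.6 RPKM against 74.0, 82.0 and 75.0 RPKM in LNCaP-EnzR cells (-0.74 ± 0.13, adjusted p = 0.00282).

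The 77 mitochondrial ribosomal protein genes, which serve the separate ribosome of that organelle, had 14 higher and 8 lower in C4-2B-EnzR (19.3% and 19.3% over all genes) and 7 higher and 11 lower in LNCaP-EnzR cells (14.4% and 18.7%), so with all libraries none of these counts stood above the share over all genes. Without LNCaP-EnzR shCXCR7 replicate 3, 18 were higher, slightly above the share of 20.0% over all genes, and 14 lower (21.4%). Between control cells 2 were higher and 38 lower in C4-2B-EnzR cells, where 30.4% and 29.6% of all genes were. Among them MRPS27 and MRPL40 fell in both lines: MRPS27 had 9.48, 9.13 and 8.18 RPKM with shCXCR7 against 24.02, 29.4 and 29.9 RPKM with LKO in C4-2B-EnzR cells (-1.60 ± 0.10, limma, adjusted p = 0.000194), and MRPL40 had 17.6, 20.8 and 17.9 RPKM against 37.7, 38.8 and 45.2 RPKM (-1.10 ± 0.10, adjusted p = 0.000546). In LNCaP-EnzR cells both fell too, by 1.13 and 1.43 on the log2 scale (limma, adjusted p = 6.62e-05 and 2.21e-05). No cytosolic ribosomal protein gene reached a 2-fold change in either line.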

How the data were processed

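The authors prepared single-end RNA-seq libraries, aligned them with STAR to hg38 and deposited 1 table of RPKM per gene. The annotation and strand setting were not given in the sources used here. Deposited lines numbered 26475. These, less 32 without a value and 4 repeated symbols, left 26439 genes. Reads were recovered from the RPKM steps for 25027 of 25028 genes (0 of 1197 after shuffling). RPKM were divided by median-of-ratios factors computed within each line (over 12 libraries between lines) and fitted with limma 3.58.1 (R 4.3.3, trended empirical Bayes) on log2(RPKM + 0.25), a scale that understates changes of low genes, with Benjamini-Hochberg adjustment over all tested genes. Replicates differed by more than counting error (chi-square per degree of freedom 1.63 to 20.4). Fits were tested on simulated data with independent noise. Its spread was taken without LNCaP-EnzR shCXCR7 replicate 3, so the shift of that library was not covered. Alternatives were pseudocounts, filters, scalings, forms of empirical Bayes, a replicate block, voom and leaving out libraries, and scaling to the members, to equal sums or to genes of at least 10 RPKM and background subtraction were added after seeing the data. Coordinates came from GENCODE 44, start sites from RefSeq (GRCh38.p14). Members and lists (paralogs, ribosome biogenesis, RNA polymerase I, TOP mRNAs, mTOR regulators, mitochondrial ribosomal proteins, snoRNA hosts, respiratory chain) were chosen with earlier results of these data known. Named genes were 12 fixed members, the 5 largest called changes per line, the 3 highest and lowest levels, the 5 largest line differences, and up to 4 per list. Others named were chosen after their values were seen. Results for some of these genes are not reported here.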

Additional observations from a re-analysis of the deposited data

How the results depend on the processing

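RPKM are shares of a library, so the size of a small change of an abundant set depends on the scaling. The median over members was 0.25 as deposited and 0.01 scaled to the members in C4-2B-EnzR cells, and -0.52 and -0.02 in LNCaP-EnzR cells. In LNCaP-EnzR cells 1 library and its background (0.254 RPKM in genes listed at 0 elsewhere) also weigh on the results. The counts below show how calls of members vary between fits, and most stand without the share over all genes. Members called higher in LNCaP-EnzR cells, 0 as reported, numbered 1 with a pseudocount of 1, robust empirical Bayes, voom or 1 fit of all 12 libraries, 2 with background subtracted, 4 at equal sums, 6 with factors from genes of at least 10 RPKM, 11 after quantile normalization, 13 scaled to the members and 0 to 7 with 1 library left out (10 scaled to the members without shCXCR7 replicate 3). Those called lower, 7 as reported, numbered 0 as deposited, 4 with no filter, 11 with voom, 13 after quantile normalization, in 1 fit of all libraries or with background subtracted, 15 with factors from genes of at least 10 RPKM, 14 scaled to the members and 3 to 11 with 1 library left out (11 scaled to the members without shCXCR7 replicate 3). In C4-2B-EnzR cells the 18 higher became 6 with no filter, 11 as deposited, 35 with voom, 9 in 1 fit of all libraries or scaled to the members and 1 to 26 with 1 library left out, and the 3 lower became 6 after quantile normalization and 11 scaled to the members (2 to 4 with 1 library left out). At 2-fold and an adjusted p under 0.001, 0 members were called in either line, and 1 higher and 5 lower between control cells.

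For the difference of effects between the lines the 0 higher became 1 with a pseudocount of 1, 2 with a filter at 1 RPKM, 6 after quantile normalization, 3 with robust empirical Bayes, 12 with voom, 21 with factors from genes of at least 10 RPKM (9 without LNCaP-EnzR shCXCR7 replicate 3), 11 at equal sums, 4 scaled to the members, 14 with background subtracted and 0 to 5 with 1 library left out, and the 0 lower became 2 after quantile normalization and 10 scaled to the members. Between control cells the 3 higher became 1 as deposited, 22 after quantile normalization, 5 with factors from genes of at least 10 RPKM, 8 at equal sums and 27 scaled to the members (3 to 4 with 1 library left out), and the 43 lower became 26 with no filter, 4 as deposited, 27 after quantile normalization and 22 scaled to the members (31 to 48 with 1 library left out). The difference of shares of RPKM was 1.35 to 2.04 percentage points in C4-2B-EnzR and -0.97 to 0.04 in LNCaP-EnzR cells with 1 library left out.

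Same-numbered libraries did not deviate together (correlations of -0.062 to 0.031 in LNCaP-EnzR and -0.096 to 0.042 in C4-2B-EnzR cells), so the numbers were not taken as pairs. With a replicate block 0 members were higher and 7 lower in LNCaP-EnzR, 1 higher and 3 lower in C4-2B-EnzR cells, 0 and 0 for the difference, and 1 higher and 18 lower between control cells.

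Some uncalled values near 0 in LNCaP-EnzR cells turned sign without shCXCR7 replicate 3 (RPL22 was -0.04 and then 0.08, RPL15 -0.01 and then 0.12). Opposite signs in values called before or after the change came with quantile normalization or scaling to the members. In LNCaP-EnzR cells RPL15 was then 0.16 and 0.18 (0.18 without shCXCR7 replicate 3) and RPSA 0.12 and 0.14. Scaled to the members, the difference between lines was -0.34 for RPL10, -0.28 for RPLP0, -0.31 for RPLP1 (-0.29 after quantile normalization), -0.16 for RPS14, -0.22 for RPS23 and -0.33 for RPS27A. Between control cells RPL8 was 0.20 after quantile normalization and 0.14 scaled to the members, RPS21 0.26 and 0.20, RPS4X 0.16 and 0.23, RPSA 0.20 and 0.29, and RPLP2 0.14 after quantile normalization.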

Other observations

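Genes of the respiratory chain, which like the ribosomal protein genes have short and abundant mRNAs, had 36 of 77 higher and 2 lower with shCXCR7 in C4-2B-EnzR cells (limma, adjusted p under 0.05), with a median of 0.27 on the log2 scale, where 19.3% and 19.3% of all genes were. In LNCaP-EnzR cells 0 were higher and 9 lower (median -0.07), where 14.4% and 18.7% of all genes were, and 13 higher and 12 lower without shCXCR7 replicate 3. Between control cells 4 were higher and 41 lower in C4-2B-EnzR than in LNCaP-EnzR cells, where 30.4% and 29.6% of all genes were. NDUFA8, a subunit of complex I, rose by 0.51 ± 0.07 in C4-2B-EnzR cells (limma, adjusted p = 0.0024), while COX7A2L, which helps to join respiratory complexes, fell in C4-2B-EnzR (-0.86 ± 0.11, adjusted p = 0.0019) and LNCaP-EnzR cells (-1.14 ± 0.14, limma, adjusted p = 0.000439).

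Of 11 host RNAs of small nucleolar RNAs, several of which carry a TOP motif, 3 were higher and 5 lower with shCXCR7 in C4-2B-EnzR cells, and 0 higher and 5 lower in LNCaP-EnzR cells, against the same shares of all genes. SNHG6 had 18.2, 19.1 and 19.6 RPKM with shCXCR7 against 53.0, 60.6 and 63.1 RPKM with LKO in C4-2B-EnzR cells (-1.62 ± 0.08, limma, adjusted p = 0.000131), and 22.8, 19.3 and 18.9 RPKM against 54.0, 51.4 and 51.3 RPKM in LNCaP-EnzR cells (-1.35 ± 0.10, adjusted p = 2.84e-05). GAS5 had 0.03 ± 0.08 in C4-2B-EnzR cells (limma, adjusted p = 0.764) and fell in LNCaP-EnzR cells (-0.53 ± 0.14, adjusted p = 0.0169), a difference that passed the interaction test (0.56 ± 0.15, limma, adjusted p = 0.0302).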
